A study of Mus musculus with 22 samples.

Results

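The WNT nuclear effectors and frizzled receptors described here are 10 genes of the 24454 gene symbols in the raw count table of the series, chosen by name: *Lef1*, *Tcf7*, *Tcf7l1* and *Tcf7l2*, the 4 DNA-binding factors of the TCF/LEF family, their partner *Ctnnb1* (β-catenin), the feedback inhibitor *Axin2*, the receptors *Fzd4* and *Fzd6*, and the co-receptors *Lrp5* and *Lrp6*. All 10 were listed in the table, all passed the filter on low counts in the fit of 22 libraries, and 9 passed it in the fit of 16 libraries, where *Axin2* was too low. The RNA came from the aorta-gonad-mesonephros region (AGM) of untreated C57BL/6 mouse embryos, the region in which blood stem and progenitor cells emerge from endothelium. Each library was made from 25 cells positive for VE-cadherin, and CD44 and Kit staining separated 4 populations. The labels call CD44Neg cells endothelial, CD44LoKitNeg cells hemogenic endothelial, CD44LoKitPos cells pre-HSPC and CD44High cells HSPC (haematopoietic stem and progenitor cells).

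CD44Neg cells gave 10 libraries, of which replicates 1 to 3 were from E11, 4 to 7 from E9.5 and 8 to 10 from E10. CD44LoKitNeg cells gave 6 libraries, with replicates 11 to 13 from E11, 14 from E9.5 and 15 and 16 from E10. CD44LoKitPos cells gave 3 libraries, replicates 17 and 18 from E10 and 19 from E9.5, and CD44High cells gave 3 libraries, replicates 20 to 22, all from E11. The date in the labels goes with the stage, so stage and date cannot be told apart. Nothing in the labels says that the libraries came from separate embryos, so p-values measure the spread between these samples, which may be partly technical.

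In canonical WNT signalling, a secreted WNT protein binds a frizzled receptor together with LRP5 or LRP6, the complex that destroys β-catenin is held back, and β-catenin enters the nucleus and activates genes with TCF/LEF factors. Without β-catenin the same factors can hold target genes silent, TCF7L1 being best known for repression and LEF1 and TCF7 for activation. β-catenin also ties vascular endothelial cadherin, the product of *Cdh5*, to the cytoskeleton at cell junctions, and FZD4 is needed for the growth of the retinal and brain vasculature. AXIN2 is a scaffold of the destruction complex, and its gene is a widely used readout of the pathway because it is itself a target.

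Start sites of *Lef1*, *Ctnnb1* and *Tcf7l2*, the TCF/LEF genes and partner that changed in the comparisons of endothelial and pre-HSPC populations, are shown first, with the letters that TCF/LEF factors are known to bind in capitals. The search was for the 7-letter word CTTTGAA or its variants that end otherwise, namely CTTTGAT as well as CTTTGTA together with CTTTGTT, on both strands of the 250 bases before each RefSeq start on GRCm38.p6, and 14.8% of the 32851 windows of this length held at least 1 of them. The table held 13 windows, some of them overlapping, for 7 of the 10 members (none for *Fzd6*, *Lrp5* and *Lrp6*), of which 2 held a word and 11 did not. The 4 printed here are both windows with a word, chosen because they hold it, and a window before the start of *Lef1* and of *Ctnnb1*. The windows not printed, those of *Tcf7*, *Tcf7l1*, *Fzd4* and *Axin2*, the main start of *Tcf7l2* and further windows of *Lef1* and *Ctnnb1*, held none. The first window lies before the main start of *Lef1* (chr3:131110047-131110296, plus strand) and held none of the words. The second lies before an internal *Lef1* start within an intron (chr3:131156044-131156293, plus strand) and held TACAAAG, the reverse complement of CTTTGTA, 147 bases before the start. The third is that of *Ctnnb1* (chr9:120933150-120933399, plus strand), with none of the words, and the fourth precedes an internal start of *Tcf7l2* in an intron (chr19:55895071-55895320, plus strand), with CTTTGTT 14 bases before the start. Counts per gene cannot separate transcripts from these starts, and a word is not evidence of binding.
*Lef1* main start: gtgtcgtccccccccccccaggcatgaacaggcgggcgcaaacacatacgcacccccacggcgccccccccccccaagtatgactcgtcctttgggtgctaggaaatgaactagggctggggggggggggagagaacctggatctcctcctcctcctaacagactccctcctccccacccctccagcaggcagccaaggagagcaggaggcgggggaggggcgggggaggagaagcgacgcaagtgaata
*Lef1* internal start: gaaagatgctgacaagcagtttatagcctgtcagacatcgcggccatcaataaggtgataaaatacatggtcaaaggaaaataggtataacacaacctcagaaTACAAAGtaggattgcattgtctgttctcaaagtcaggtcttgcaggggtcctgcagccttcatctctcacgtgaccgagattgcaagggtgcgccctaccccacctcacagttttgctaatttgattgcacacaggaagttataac
*Ctnnb1* start: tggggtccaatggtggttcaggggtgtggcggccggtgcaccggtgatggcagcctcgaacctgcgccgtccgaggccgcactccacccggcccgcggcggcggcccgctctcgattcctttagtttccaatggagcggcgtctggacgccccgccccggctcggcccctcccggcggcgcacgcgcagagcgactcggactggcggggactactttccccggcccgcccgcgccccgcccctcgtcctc
*Tcf7l2* internal start: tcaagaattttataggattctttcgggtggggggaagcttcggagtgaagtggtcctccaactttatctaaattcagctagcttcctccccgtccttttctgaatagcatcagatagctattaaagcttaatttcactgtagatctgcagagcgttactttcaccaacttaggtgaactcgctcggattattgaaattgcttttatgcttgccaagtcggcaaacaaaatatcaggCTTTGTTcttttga

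In the GENCODE annotation of GRCm38, *Lef1* lies on chromosome 3 (131110471 to 131224356, plus strand) and *Ctnnb1* on chromosome 9 (120929216 to 120960507, plus strand). *Tcf7* (52252371 to 52283014, minus strand) and *Axin2* (108920349 to 108950783, plus strand) lie on chromosome 11, *Tcf7l1* (72626378 to 72789254, minus strand) and *Lrp6* (134446476 to 134566965, minus strand) on chromosome 6, and *Tcf7l2* (55741820 to 55933654, plus strand) and *Lrp5* (3584828 to 3686564, minus strand) on chromosome 19. *Fzd4* is on chromosome 7 (89404355 to 89413134, plus strand) and *Fzd6* on chromosome 15 (39006034 to 39038188, plus strand). Exons of *Lef1* share 1208 bases with the antisense gene *Gm43352*, and those of *Ctnnb1* share 759 bases with *Ulk4* on the other strand and 23 with *Mir7090*. *Tcf7l1*, *Axin2* and *Fzd6* share 179, 209 and 152 bases with *Gm15401*, *Gm11670* and *Gm26704*. The strand setting of the counting is not given in the sources used here, so reads in these stretches cannot be assigned to 1 gene, although *Ulk4* had at most 19 counts and *Gm15401* at most 33 in any library.

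The libraries held between 3912350 and 8657546 counts, of which the ribosomal RNA locus *Rn45s* took 1.92 to 23.9%. A count of 0 allowed up to 3 counts, or 0.348 to 0.813 CPM (counts scaled to a library of 1000000) depending on the library, and this floor covers counting error only. No 2 libraries were identical, and the 20 pairs of a population and stage differed by more than sampling noise (chi-square per degree of freedom of 17 to 85.2). Of the sorting markers, *Cd44* averaged 29.8 ± 19.5 (normalized CPM with SD, n = 10) in CD44Neg, 254 ± 78.6 (n = 6) in CD44LoKitNeg, 257 ± 85.1 (n = 3) in CD44LoKitPos and 266 ± 85.6 (n = 3) in CD44High, so its RNA set CD44Neg apart but did not separate the CD44Lo gates from CD44High. *Kit* was at 230 ± 50.04 (n = 3) in CD44LoKitPos against 46.9 to 75.3 in the others. The nearest library by log2 CPM was of the same population for 20 of 22, and the exceptions, CD44LoKitNeg replicate 14 and CD44LoKitPos replicate 19, both from E9.5, were nearest to each other. Summed pan-endothelial markers ranged from 2198 to 4176 in CD44Neg, 2801 to 5977 in CD44LoKitNeg and 488 to 1215 in CD44LoKitPos. In CD44High they reached only 14.1 to 64.9, and *Cdh5*, which encodes the VE-cadherin used for sorting, had 0 counts in all 3 libraries.

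The comparison of CD44LoKitNeg with CD44Neg asks how hemogenic endothelium differs from the remaining endothelium of the same region. *Lef1* fell and *Ctnnb1* rose, while the levels of the receptors and of the other TCF/LEF genes did not pass the test. Of the 9 members tested, 1 was called higher and 1 lower at an adjusted p under 0.01, against 10.2% of all 11022 genes called in either direction. All adjusted p-values of comparisons came from quasi-likelihood F tests in edgeR, adjusted over all genes by the method of Benjamini and Hochberg, and levels are CPM normalized by TMM, a scaling of library sizes.

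*Lef1* ranged from 15.4 to 55.4 normalized CPM in the 10 CD44Neg libraries, with a median of 30.6. In CD44LoKitNeg it was 3.36, 6.08 and 2.32 at E11, 9.73 at E9.5 and 2.52 and 2.16 at E10. Every CD44LoKitNeg library lay below every CD44Neg library, a separation that 5.58% of all genes tested showed in one direction or the other. The mean was 35.5 ± 12.9 (SD, n = 10) against 4.36 ± 3.01 (n = 6). The fit gave an 8.04-fold lower level, or -3.01 on the log2 scale, with a standard error (SE) of 0.42 and an adjusted p of 6.8e-05.

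*Ctnnb1*, the most abundant member in all 4 populations per length of transcript, went the other way. CD44Neg libraries held 423 to 826 normalized CPM (median 617) and CD44LoKitNeg libraries 1330, 1321 and 1420 at E11, 1404 at E9.5 and 2080 and 1969 at E10. No library of either population reached into the range of the other, which held for 5.58% of all genes tested. The log2 fold change was 1.37 (SE 0.15, adjusted p = 8.4e-06), a fitted 2.59-fold rise, from 617 ± 125 (SD, n = 10) to 1587 ± 342 (n = 6) on average.

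The other 3 TCF/LEF genes did not pass the test. *Tcf7* was at 5.12 ± 4.44 in CD44Neg (0.447 to 15.4) and 9.59 ± 5.09 in CD44LoKitNeg (0.406 to 14.8), a log2 fold change of 0.91 with an adjusted p of 0.402. *Tcf7l1* was at 28.4 ± 8.49 in CD44Neg (14.0 to 37.1) and 35.5 ± 23.3 in CD44LoKitNeg (10.5 to 66.2), with 0.33 on the log2 scale and an adjusted p of 0.586. Taking stage as a covariate moved the latter to -0.05, so *Tcf7l1* has no settled direction here. *Tcf7l2*, at 73.3 ± 23.4 in CD44Neg and 70.3 ± 14.1 in CD44LoKitNeg, had nearly equal means and ranges that overlapped.

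**Figure D1:**
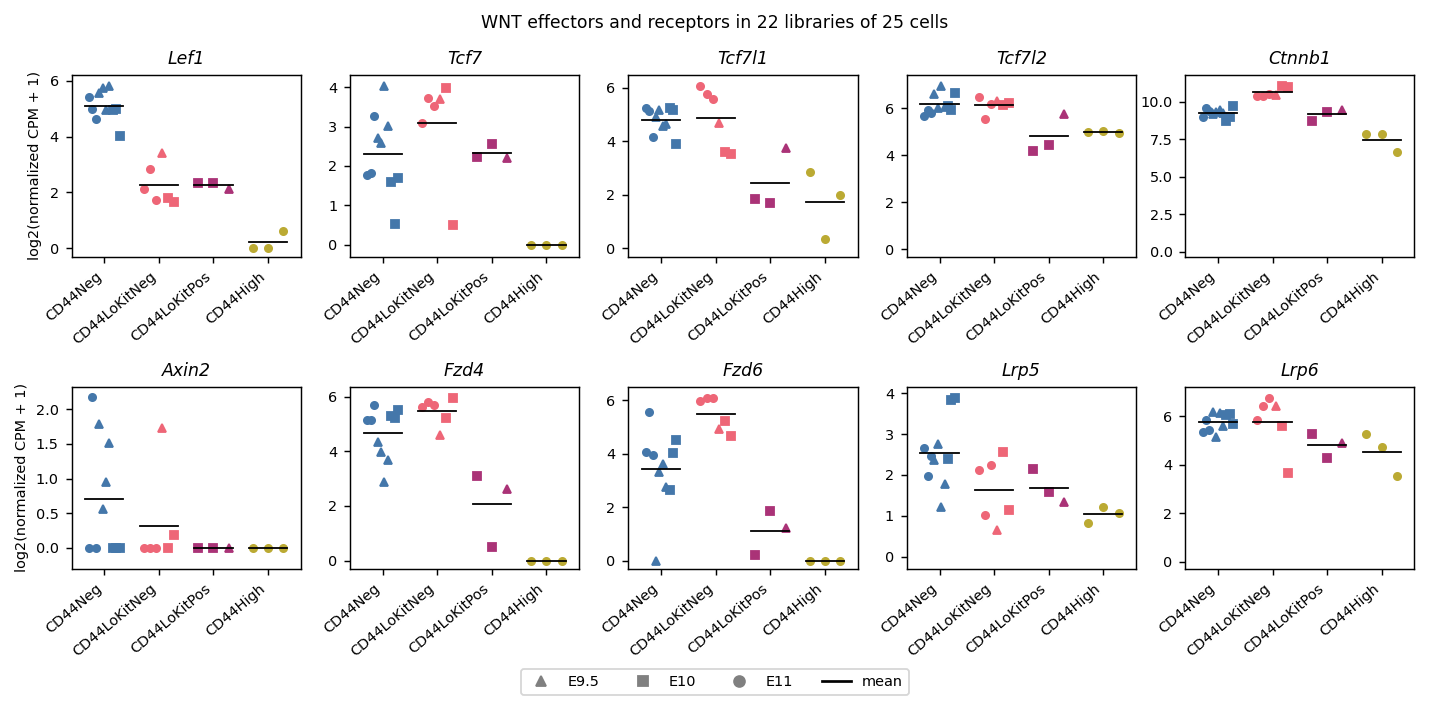
Level of each of the 10 members in every library, as log2 of normalized CPM plus 1 on the vertical axis (ranges differ between panels), by population; marks show the stage (triangles E9.5, squares E10, circles E11) and bars the mean of each population. *Lef1* separates CD44Neg from the other 3 populations, *Ctnnb1* peaks in CD44LoKitNeg, and *Tcf7*, *Fzd4*, *Fzd6* and *Axin2* are at 0 in all 3 CD44High libraries.

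Neither frizzled receptor was called. *Fzd6*, a receptor best known for planar cell polarity, was at 14.4 ± 12.8 normalized CPM in CD44Neg and 47.4 ± 19.3 in CD44LoKitNeg, or 1.72 on the log2 scale (SE 0.58, adjusted p = 0.0415). Its overlap came from 1 library, CD44Neg replicate 2 at 46.3, while the other 9 CD44Neg libraries held 0 to 21.6 and the lowest CD44LoKitNeg library 24.3. Within E11 the CD44LoKitNeg libraries (61.1, 66.6 and 66.1) all lay above the CD44Neg libraries (15.6, 46.3 and 14.5), and within E9.5 and E10 the values of 29.8, 36.6 and 24.3 lay above the 7 CD44Neg libraries as well. Such a separation, in either direction, was shown by 30.2% of all genes tested at E11 and by 13% at E9.5 and E10, and *Fzd6* was not called in either (adjusted p = 0.468 and 0.295). *Fzd4* was at 29.1 ± 15.1 and 45.9 ± 13.8, with overlapping ranges of 6.33 to 51.2 and 23.2 to 60.7 (log2 fold change 0.66, adjusted p = 0.223).

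The co-receptors did not pass the test either. *Lrp5* was low, at 5.78 ± 4.34 in CD44Neg and 2.46 ± 1.75 in CD44LoKitNeg (log2 fold change -1.22, adjusted p = 0.258), and *Lrp6* was at 54.4 ± 13.6 and 65.3 ± 34.0 (0.27, adjusted p = 0.609). *Axin2* was low. It had 0 counts in 5 of 10 CD44Neg libraries, 4 of 6 CD44LoKitNeg libraries and all 6 of the CD44LoKitPos and CD44High libraries, and its highest level was 3.5 in CD44Neg replicate 2. No difference of *Axin2* between populations was called in the fit of 22 libraries.

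The same comparison was made within stages, which holds the date constant at E11. At E11, with 3 libraries against 3, 1 of 10 members was called, against 3.64% of 12949 genes. *Lef1* fell from 41.3, 30.7 and 23.5 in CD44Neg to 3.36, 6.08 and 2.32 in CD44LoKitNeg (log2 fold change -3.01, SE 0.66, adjusted p = 0.00723). *Ctnnb1* had a log2 fold change of 1.08 (adjusted p = 0.0203), with 1330, 1321 and 1420 against 493, 764 and 663. *Lef1* lost its call without any 1 of replicates 1, 2, 3, 4, 5, 7, 8, 11, 12 and 13 (adjusted p of 0.0103 to 0.0375), and *Ctnnb1* was called without replicate 22 (0.00331) and under 5 other settings (2.7e-05 to 0.00448).

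At E9.5 and E10, with 3 CD44LoKitNeg and 7 CD44Neg libraries, 2 of 10 members were called, against 1.94% of genes. *Lef1* again fell (log2 fold change -3.03, SE 0.63, adjusted p = 0.00768) and *Ctnnb1* rose (1.59, SE 0.24, adjusted p = 0.00122). The call of *Lef1* was lost without any 1 of replicates 1, 2, 3, 4, 5, 7, 8, 9, 14, 15 and 16 (adjusted p of 0.0107 to 0.0534), and also with replicates 14 and 19 both left out (-3.35, adjusted p = 0.0314). The fold change of *Lef1* had nearly the same size in both stage groups, -3.01 and -3.03.

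Whether the population difference depended on stage was tested as an interaction, in which 0 of 10 members and 0.108% of all genes were called. At an unadjusted p under 0.05 the count over all genes was 1380, and DESeq2 called 100 genes and limma voom 9. Apart from *Axin2*, which had 0 counts in most libraries, *Tcf7l1* had the largest interaction of the members. It was at 66.2, 53.0 and 47.2 in CD44LoKitNeg at E11, all above the 37.1, 34.2 and 16.9 of CD44Neg. Such a separation, in either direction, was shown by 30.2% of all genes tested at that stage. At E10 it was at 11.2 and 10.5 in CD44LoKitNeg and at 36.6, 34.9 and 14.0 in CD44Neg. The single CD44LoKitNeg library of E9.5, at 25.0, lay within the CD44Neg range of that stage, 22.5 to 34.6. The difference between stage groups was 1.89 on the log2 scale (SE 0.83), from 0.92 at E11 to -0.97 at E9.5 and E10, with an unadjusted p of 0.0335 and an adjusted p of 0.421. *Lrp6* showed 0.85 at E11 and -0.50 earlier, an interaction of 1.36 (adjusted p = 0.479). Over the alternatives these ran from 0.26 to 1.08, from -1.34 to -0.01 and from 0.88 to 2.23. The E10 value of *Lrp6* in CD44LoKitNeg replicate 16 was 11.5 against 47.3 in replicate 15. The interaction for *Ctnnb1* was -0.50 (adjusted p = 0.721).

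Within CD44Neg, 3 libraries of E11 were compared with 4 of E9.5. No member was called, against 0.0463% of genes (6 in all), with 1706 genes at an unadjusted p under 0.05, 192 called by DESeq2 and 86 by limma voom. *Fzd4* came closest by unadjusted p. It was at 19.1, 14.6, 6.33 and 11.9 normalized CPM at E9.5, at 38.4, 36.7 and 44.6 at E10 and at 34.2, 34.4 and 51.2 at E11. The log2 fold change of E11 against E9.5 was 1.62 (SE 0.60, unadjusted p = 0.0146, adjusted p = 0.246). How many of all genes have separate ranges between these stages was not counted. The single CD44LoKitNeg library of E9.5 also had the lowest *Fzd4* of its population, at 23.2 against 36.6 to 60.7. *Fzd6* was at 0 to 11.2 at E9.5 and 14.5 to 46.3 at E11 (1.97, adjusted p = 0.375), and *Tcf7l2* at 62.7 to 121 at E9.5 and 49.5 to 59.1 at E11 (-0.66, adjusted p = 0.343). Summed pan-endothelial markers were also lower at E9.5 (2198 to 2766) than at E11 (3756 to 4176), as was the *Rn45s* share (1.92 to 13.8% against 15.2 to 17.9%). The part of either in these differences was not tested.

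**Figure D2:**
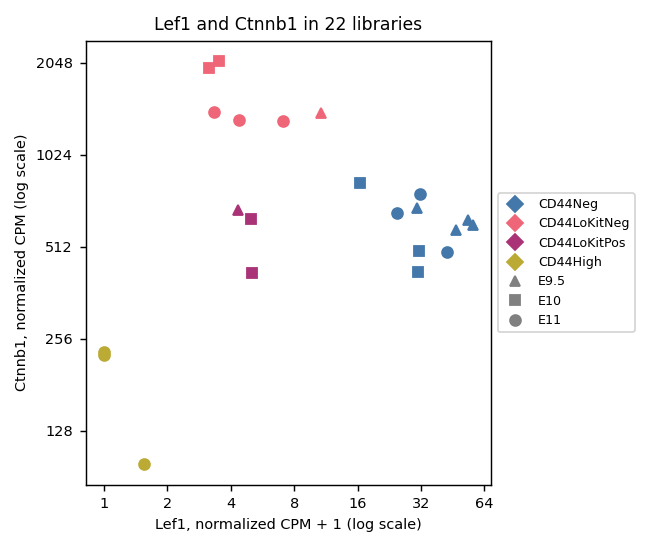
Normalized CPM of *Lef1* on the horizontal axis against *Ctnnb1* on the vertical axis, both on log scales and with 1 added to *Lef1*, for all 22 libraries, with colour for the population and mark for the stage. The 10 CD44Neg libraries have 15.4 to 55.4 of *Lef1* with 423 to 826 of *Ctnnb1*, and the 6 CD44LoKitNeg libraries have 2.16 to 9.73 with 1321 to 2080.

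The arterial and venous markers differed along with these genes. Summed over 5 arterial markers, CD44Neg libraries ranged from 191 to 431 and CD44LoKitNeg libraries from 1042 to 2102, and over 4 venous markers they ranged from 500 to 1117 and from 43.3 to 210. No marker of either list was at 0 in all libraries of either population, and their part in the differences of *Lef1* and *Ctnnb1* was not tested. In bulk RNA from 25 cells, fewer cells of a type and less RNA per cell cannot be told apart. Haematopoietic markers summed to 0 to 35.2 in CD44Neg, with *Ptprc* and *Gfi1b* at 0 in all, and to 3.75 to 231 in CD44LoKitNeg. In CD44LoKitNeg they were at 3.75 to 12.1 at E11 and at 78.0 to 231 at E9.5 and E10. Pan-endothelial sums there were 5441 to 5977 and 2801 to 3803, and the part of either in stage differences was not tested. Of 7 macrophage markers, 4 were at 0 in all CD44Neg libraries (*Csf1r*, *Adgre1*, *C1qa* and *C1qb*) and 3 in all CD44LoKitNeg libraries.

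CD44LoKitPos was compared with CD44LoKitNeg at E9.5 and E10, where both populations have libraries. The comparison asks what differs between the Kit-negative and Kit-positive cells of intermediate CD44. *Ctnnb1* and *Tcf7l2* fell, and the fold changes of the frizzled receptors were larger but not called. Of 10 members 0 were called higher and 2 lower, against 2.01% of genes called lower and 2.9% in either direction.

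*Ctnnb1* was at 420, 630 and 677 normalized CPM in CD44LoKitPos against 1404, 2080 and 1969 in CD44LoKitNeg of the same stages (log2 fold change -1.65, SE 0.29, adjusted p = 0.00143). The CD44LoKitPos values thus lay within or just below the CD44Neg range of 423 to 826. Without replicate 17 the adjusted p was 0.0247. *Tcf7l2* was at 17.2 and 20.8 at E10 and 53.0 at E9.5, against 67.9, 72.7 and 77.8 (-1.44, SE 0.32, adjusted p = 0.00845). This call was lost without any 1 of replicates 1, 2, 3, 4, 15, 16, 17 and 18 (adjusted p of 0.0106 to 0.0719), with limma voom (0.0121) and with all stages pooled (0.0252).

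*Fzd4* was at 7.59, 0.400 and 5.12 in CD44LoKitPos and at 23.2, 36.6 and 60.7 in CD44LoKitNeg (-3.13, SE 0.70, adjusted p = 0.0103), and *Fzd6* at 0.155, 2.67 and 1.36 against 29.8, 36.6 and 24.3 (-4.41, SE 1.14, adjusted p = 0.0245). The ranges of both receptors were separate, as were those of 26.1% of all genes tested. Over the alternatives the log2 fold change ran from -5.32 to -2.55 for *Fzd4* and from -6.47 to -3.84 for *Fzd6*. *Fzd4* was called when any 1 of replicates 6, 17, 20, 21 and 22 was left out (adjusted p of 0.000785 to 0.0098) and under 6 other settings (4.6e-05 to 0.00997), and *Fzd6* without replicate 4 (0.00526) and under 3 other settings (0.000401 to 0.00799). *Tcf7l1* was at 2.63 and 2.27 at E10 and 12.5 at E9.5 (-1.76, adjusted p = 0.103).

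*Lef1* was not called. At E10 it was at 4.03 and 4.0 in CD44LoKitPos, above the 2.52 and 2.16 of CD44LoKitNeg, and at E9.5 it was at 3.31 against 9.73, so the fold change near 0 averages opposite directions. *Tcf7* was at 3.72, 4.93 and 3.62, and the co-receptors *Lrp5* and *Lrp6* averaged 2.31 ± 0.99 and 28.2 ± 9.35 (SD, n = 3). Summed pan-endothelial markers were 488 to 1215 in CD44LoKitPos, and haematopoietic markers 361 to 758, so both moved with these genes, and their part in the results was not tested. Replicate 19, the E9.5 library, had the highest arterial sum of the 3, 322 against 6.35 and 40.1, and the highest *Tcf7l1* and *Tcf7l2*.

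**Figure D3:**
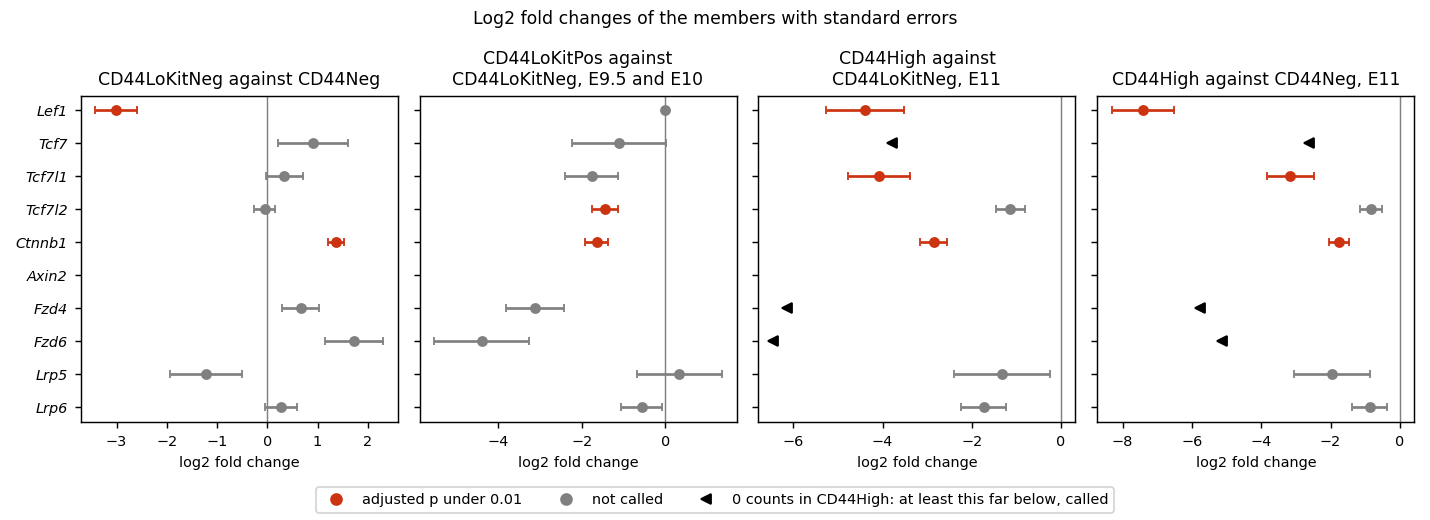
Log2 fold change of each member on the horizontal axis in 4 comparisons, with bars of 1 standard error. Red points passed an adjusted p of 0.01 and grey points did not. Black arrowheads mark called genes at 0 counts in CD44High, drawn at the fold between a floor of 3 counts per library and the mean of the other population. *Axin2* is not drawn, and *Lef1* is drawn without a bar in the second comparison, where its fold change was near 0. *Ctnnb1* lies at 1.37 in the first comparison and at -1.65, -2.85 and -1.77 in the others.

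CD44High cells were compared with CD44LoKitNeg and CD44Neg cells at E11, the only stage that holds CD44High libraries. *Ctnnb1* and *Lef1* were lower than in every other library of the series, and *Tcf7*, *Fzd4*, *Fzd6* and *Axin2* were at 0 counts in all 3 libraries. *Tcf7l2* was not lowest here, since both E10 libraries of CD44LoKitPos (17.2 and 20.8) lay below the CD44High libraries (29.8 to 31.4), and *Axin2* was at 0 in CD44LoKitPos as well. Of 10 members, 6 were called lower and 0 higher against CD44LoKitNeg, where 8.81% of genes were called lower and 19.5% in either direction. Against CD44Neg the counts were also 6 and 0, with 6.77% of genes called lower and 10.8% in either direction. Both comparisons share the CD44High libraries.

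*Lef1* had 2 counts in CD44High, both in replicate 22. The level over the 3 CD44Neg libraries of E11 was 200-fold higher (95% exact Poisson interval 55.4 to 1653), and over the CD44LoKitNeg libraries of E11 24.6-fold higher (6.82 to 203). These intervals cover counting error only, and because the reads are PCR copies without molecular identifiers and libraries of a group differed by more than sampling noise, they understate the uncertainty. The test gave an adjusted p of 6.1e-06 and 0.000665. *Tcf7*, with 7.52, 12.3 and 10.5 normalized CPM in CD44LoKitNeg, was at least 13.8-fold lower in CD44High by the mean (adjusted p = 0.0011). In CD44Neg it was at 2.38, 2.53 and 8.67, whose mean gave a bound of 6.18-fold (adjusted p = 0.00467). Replicate 3 raised that mean, so the bound is smaller for the other CD44Neg libraries of E11. The second of these calls was lost without replicate 3, 20, 21 or 22 (adjusted p of 0.016 to 0.0212).

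*Tcf7l1* was at 6.25, 0.266 and 2.98 in CD44High, the second of these from 1 count, and fell by 4.08 on the log2 scale against CD44LoKitNeg (SE 0.70, adjusted p = 0.000185) and by 3.17 against CD44Neg (SE 0.68, adjusted p = 0.0023, and 0.011 without replicate 22). *Tcf7l2* was at 30.7, 31.4 and 29.8. Against CD44LoKitNeg its log2 fold change was -1.14 (adjusted p = 0.0101) and against CD44Neg -0.82 (adjusted p = 0.0784). The former was called without any 1 of replicates 5, 6, 7, 8, 9, 10, 12, 15 and 19 (adjusted p of 0.00386 to 0.00958) and under 4 other settings (0.000809 to 0.00789), and the latter with all stages pooled (0.00831).

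*Ctnnb1* was at 228, 232 and 99.5 normalized CPM in CD44High, below every library of the other populations. Against CD44LoKitNeg of E11 alone, 42.4% of all genes tested did not overlap. It fell by 2.85 on the log2 scale against CD44LoKitNeg (SE 0.30, adjusted p = 7.4e-07) and by 1.77 against CD44Neg (SE 0.29, adjusted p = 0.00017). Both calls held in every alternative tried.

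Neither frizzled receptor was detected in CD44High at this depth. *Fzd4*, at 48.2, 55.3 and 51.4 in CD44LoKitNeg and 34.2, 34.4 and 51.2 in CD44Neg, was at least 70.5-fold and at least 54.5-fold lower (adjusted p = 3.5e-06 and 7.0e-06). *Fzd6* was at least 88.2-fold and at least 34.8-fold lower (adjusted p = 0.000155 and 0.000761). These bounds set each CD44High library at its floor of 3 counts against the mean of the other group, and leave out the spread within that group. *Fzd6* in CD44Neg was at 15.6, 46.3 and 14.5, so replicate 2 raised its mean. *Lrp6* was detected, at 38.1, 25.5 and 10.6, with log2 fold changes of -1.73 against CD44LoKitNeg (adjusted p = 0.0134) and -0.88 against CD44Neg (adjusted p = 0.246). The first was called without replicate 15, 16 or 20 (0.00489 to 0.00663) and under 4 other settings (0.00202 to 0.00953). *Lrp5* was at 0.782, 1.33 and 1.08, with log2 fold changes of -1.32 against CD44LoKitNeg (adjusted p = 0.382) and -1.97 against CD44Neg (adjusted p = 0.233), whose E11 libraries, at 5.30, 2.92 and 4.49, all lay above it, a separation that 37.2% of all genes tested showed.

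In the same libraries, summed macrophage markers were 1215 to 3398, with none of the 7 at 0 in all 3 libraries, against at most 114 in any library of the other populations, and haematopoietic markers summed to 714 to 878. Arterial markers summed to 0.532 to 37.1, with *Gja5* and *Sox17* at 0 in all 3 libraries. Erythroid markers summed to 48.1 to 252, against 61.3 at most elsewhere. Mesenchymal markers summed to 0.271 to 180 in CD44High and to at most 59.6 elsewhere. Neural markers summed to 30.4 to 117 in CD44Neg and to at most 22.9 elsewhere, most of it from *Nes* (59.1 ± 25.7 in CD44Neg, SD, n = 10), while *Elavl3* had 0 counts in all libraries. The part of any of these markers in the results was not tested.

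CD44High and CD44LoKitPos share no stage, so population and stage cannot be told apart in their comparison. The *Rn45s* share differed as well, at 16.6 to 23.9% in CD44High and 6.82 to 9.26% in CD44LoKitPos, and its part was not tested. Of 10 members 4 were called lower and 0 higher, against 2.23% of genes called lower and 3.01% in either direction. *Ctnnb1* fell by 1.62 on the log2 scale (SE 0.30, adjusted p = 0.00106), and *Lef1* had a log2 fold change of -4.34 (adjusted p = 0.00352). Set against the CD44LoKitPos mean, *Tcf7* was at least 5.58-fold lower (adjusted p = 0.00769), while *Fzd6* had an adjusted p of 0.0944. For *Fzd4* the bound on the mean was 5.97-fold (adjusted p = 0.00203). Its CD44LoKitPos libraries held 7.59, 0.400 and 5.12, and the 0.400 of replicate 18, from 3 counts, lay below the CD44High floors of 0.586 to 0.813. That library cannot be told apart from CD44High. With stage as a covariate the adjusted p of *Ctnnb1* was 0.0109, and with replicates 14 and 19 left out 0.0101. The call of *Lef1* was lost without replicate 20 or 21 (0.0211 and 0.0226) and with limma voom (0.0298), and that of *Fzd4* without replicate 20 or 22 (0.0112 and 0.0114) and with limma voom (0.151). The call of *Tcf7* was lost without any 1 of replicates 4, 5, 7, 14, 17, 18, 19, 20, 21 and 22 (adjusted p of 0.0101 to 0.0358), with no filter (0.0122), with limma voom (0.0325) and without replicates 14 and 19 (0.0175).

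Levels of the 4 TCF/LEF genes were then set beside each other per kilobase of exon, a scale on which genes can be compared. In CD44Neg, *Tcf7l2* (8.35 normalized CPM per kb) and *Tcf7l1* (7.24) led, followed by *Lef1* (4.04) and *Tcf7* (1.95), as means over all stages. *Tcf7l2* was the higher of the first pair at E9.5 (9.82 against 7.03) and E10 (8.52 against 7.26), and *Tcf7l1* at E11 (7.49 against 6.21). *Lef1* made up 18.6% of the sum in CD44Neg (10.1 to 27.9% over 10 libraries) and 2.40% in CD44LoKitNeg (1.08 to 5.29% over 6). The 2 ranges did not overlap. The sum averaged 21.6 CPM per kb in CD44Neg (16.5 to 28.8) and 21.2 in CD44LoKitNeg (11.4 to 30.04), but the populations stood in opposite order at E11 and E10. At E11 it was 30.04, 24.0 and 24.4 in CD44LoKitNeg against 20.7, 19.9 and 16.5 in CD44Neg, and at E10 it was 16.5 and 11.4 against 21.05, 19.3 and 17.4. In CD44LoKitPos the sum was 6.92, with *Tcf7l2* at 47.8% and *Lef1* at 7.41% on average. The order of *Tcf7* and *Tcf7l1* differed between the E10 libraries and the single E9.5 library. *Tcf7* made up 31.4 and 35.6% and *Tcf7l1* 14.9 and 10.9% in the E10 libraries, against 12.5 and 29.01% in the E9.5 library. With 1 library at E9.5, stage and library cannot be told apart. In CD44High the sum was 4.32, of which *Tcf7l2* made up 82.5% (68.7 to 98.1% over 3 libraries). These shares are a description, and the exon lengths come from an annotation that may differ from the one used for counting.

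**Figure D4:**
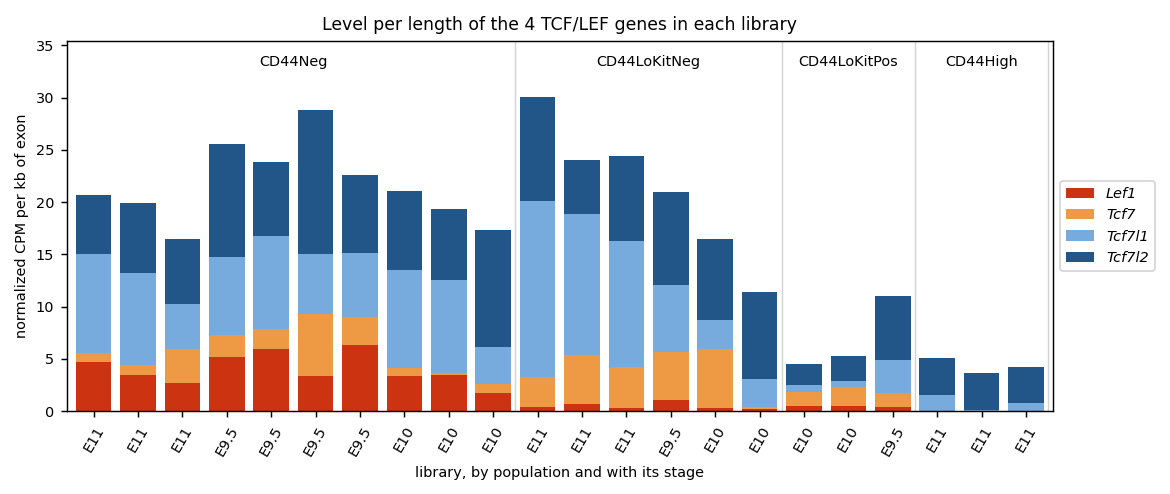
Stacked levels of the 4 TCF/LEF genes in normalized CPM per kilobase of exon on the vertical axis, with 1 bar for each of the 22 libraries on the horizontal axis, grouped by population and marked with the stage. The bars reach 16.5 to 28.8 in CD44Neg and 3.64 to 5.09 in CD44High; the *Lef1* part holds 10.1 to 27.9% of the bar in CD44Neg and at most 5.29% in CD44LoKitNeg, and the *Tcf7l2* part 68.7 to 98.1% in CD44High.

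On the same per-length scale, *Ctnnb1* stood at 119 CPM per kb in CD44Neg, 306 in CD44LoKitNeg, 111 in CD44LoKitPos and 35.9 in CD44High. Among receptors and co-receptors in CD44Neg, *Fzd4* (4.34), *Lrp6* (3.98) and *Fzd6* (3.00) were close over all stages, with *Lrp5* at 0.593. Their order differed by stage, with *Lrp6* (4.09) above *Fzd4* (1.93) and *Fzd6* (1.35) at E9.5, and *Fzd4* (5.94) and *Fzd6* (5.29) above *Lrp6* (3.36) at E11. In CD44LoKitNeg the means over all stages were 9.84 for *Fzd6*, 6.83 for *Fzd4*, 4.78 for *Lrp6* and 0.253 for *Lrp5*, and this order held at E11 but not earlier. At E11 *Fzd6* was at 13.4, *Fzd4* at 7.69 and *Lrp6* at 6.06. At E10 *Fzd4* (7.24) was above *Fzd6* (6.32) and *Lrp6* (2.15), and in the single E9.5 library *Lrp6* and *Fzd6* were nearly equal (6.19 and 6.18) and above *Fzd4* (3.45). In CD44LoKitPos and CD44High *Lrp6* led, at 2.06 and 1.81, and *Fzd4* and *Fzd6* were at 0.651 and 0.289 in the former and at 0 in the latter.

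The members were set against 113 other WNT pathway genes listed by role, of which 70 passed the filter in the comparison of CD44LoKitNeg with CD44Neg. Of these, 9 were called higher and 5 lower, against 10.2% of all genes in either direction, with a median log2 fold change of 0.43 beside 0.01 over all genes tested. Only 1 of the 20 ligands, *Wnt11*, passed the filter and it was not called. Among genes of ligand supply and reception, *Wls*, which carries WNT proteins to the cell surface, rose from 112 ± 14.9 to 267 ± 73.7 (log2 fold change 1.26, adjusted p = 2.6e-05). The receptor *Fzd3* rose (1.78, adjusted p = 0.000919) and the receptor *Fzd10* fell from 10.4 to 0.299 (-4.97, adjusted p = 0.00283).

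Of 6 secreted inhibitors tested, 2 rose, namely *Dkk2*, which binds LRP5 and LRP6, from 6.65 ± 6.89 to 116 ± 96.7 (4.15, adjusted p = 0.00206), and *Sost* (2.50, adjusted p = 0.00589). In the cytoplasm, *Apc*, a scaffold of the destruction complex, rose from 49.0 to 135 (1.47, adjusted p = 0.00172) and *Tnks2*, an enzyme that marks axins for degradation, rose by 0.88 on the log2 scale (adjusted p = 0.000573). *Nkd1*, a feedback inhibitor that acts on dishevelled, fell from 10.9 to 0.158 (-5.91, adjusted p = 0.00148). Of 15 nuclear partners tested only *Aes*, a short relative of the TLE corepressors, was called, rising from 6.95 to 38.7 (2.48, adjusted p = 0.000139).

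Of 8 target genes tested, 2 were called lower and 1 higher. *Ccnd1*, which encodes cyclin D1, fell from 124 to 204 in CD44Neg libraries to 3.76 to 36.0 in CD44LoKitNeg libraries (-2.99, SE 0.40, adjusted p = 4.0e-05). *Myc* fell from 53.9 to 121 in the former to 13 to 39.1 in the latter (-1.97, SE 0.24, adjusted p = 1.7e-05). Neither gene overlapped between the populations, which held for 5.58% of all genes tested, while *Id2* rose by 1.03 on the log2 scale (adjusted p = 0.00536). Among junction partners of β-catenin, *Cdh5* rose from 343 ± 143 to 955 ± 253 (1.48, adjusted p = 0.0003) and *Ctnna1*, which encodes α-catenin, fell (-0.65, adjusted p = 0.00704). The calls of *Ctnna1*, *Id2* and *Sost* were each lost without any 1 of 11, 7 and 6 libraries (adjusted p up to 0.0246, 0.0205 and 0.0161). With all 22 libraries in the fit, *Ctnna1* (0.0197), *Fzd3* (0.0153) and *Id2* (0.0253) were not called, *Sost* was not called with stage as a covariate (0.0122), *Dkk2* was not called with limma voom (0.0195), and *Ctnna1* was not called under 3 further settings (0.0117 to 0.0153).

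**Figure D5:**
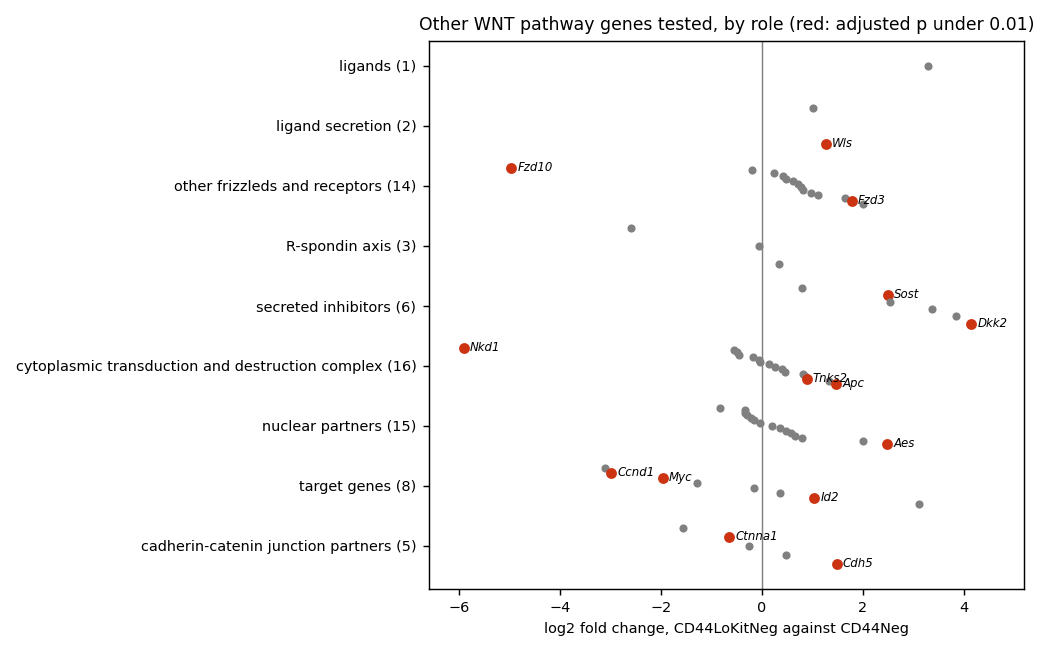
Log2 fold change of CD44LoKitNeg against CD44Neg on the horizontal axis for the 70 other WNT pathway genes tested, in rows by role with the number tested in brackets; red points with names passed an adjusted p of 0.01. *Nkd1*, *Fzd10*, *Ccnd1*, *Myc* and *Ctnna1* lie on the left and *Dkk2*, *Sost*, *Aes*, *Fzd3*, *Cdh5*, *Apc*, *Wls*, *Id2* and *Tnks2* on the right.

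Within stages fewer of the 80 tested genes of this list were called. At E11 there were 2 higher (*Wls*, 1.58, and *Cdh5*, 1.57) and 5 lower, against 3.64% of all genes called in either direction. *Nkd1* and *Fzd10* had 0 counts in CD44LoKitNeg and were at least 27.8-fold and at least 18.8-fold lower, and *Ccnd1* (-3.75), *Birc5* (-2.80), which encodes survivin, and *Myc* (-2.10) also fell. The calls of *Cdh5*, *Fzd10* and *Nkd1* were lost without any 1 of 12, 10 and 15 libraries (adjusted p up to 0.0575, 0.0269 and 0.0295), and that of *Birc5* with all stages pooled (0.0408). At E9.5 and E10, *Aes* (2.31) and *Wls* (0.94) were higher and *Ccnd1* (-2.55) and *Myc* (-2.03) lower, against 1.94% of all genes. Those 4 calls were each lost without single libraries, among them replicates 15 and 16, with an adjusted p of 0.0331, 0.0441, 0.0453 and 0.014 at most, and all 4 with replicates 14 and 19 left out (0.0112 to 0.0325).

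In CD44LoKitPos against CD44LoKitNeg, 1 gene of the list was called higher and 5 lower, with a median log2 fold change of -0.63 (-0.68 with genes at 0 set at their bound) beside 0.03 over all genes, of which 2.9% were called. *Myc* rose from 24.5 ± 1.13 to 96.4 ± 9.55 normalized CPM (1.97, adjusted p = 0.00118), back into the CD44Neg range, whereas *Ccnd1* was at 15.9 ± 3.70 against 30.2 ± 5.91 (-0.95, adjusted p = 0.287). *Dkk2* fell from 30.0 to 0.653, and the junction genes *Cdh5* (-2.31), *Ctnnd1* (-1.54) and *Ctnna1* (-1.42) fell together with *Tspan12* (-2.19), a partner of FZD4. *Dkk2* and *Tspan12* lost their calls without any 1 of 15 and 18 libraries (adjusted p up to 0.0782 and 0.0988), *Ctnnd1* without replicate 17 (0.0126) and *Myc* without replicate 16 (0.0134). With all stages pooled, and without replicates 14 and 19, *Dkk2* (0.0132 and 0.0129) and *Tspan12* (0.0176 and 0.0432) were not called.

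In CD44High against CD44LoKitNeg, 4 genes of the list were called higher and 20 lower, with a median of -1.57 beside 0.05 over all genes, of which 19.5% were called. *Myc* rose from 26.2 ± 13.05 to 177 ± 9.77 (2.76, adjusted p = 5.4e-06) and *Birc5* from 45.0 to 446 (3.31, adjusted p = 2.5e-06). *Lgr4* was called (5.08, adjusted p = 0.0081) on the strength of 1 library at 144 beside 4.07 and 4.25, and *Nkd1* was called (0.00911) at 2.48 against 0 counts. The calls of *Lgr4* and *Nkd1* were lost without any 1 of 16 and 17 libraries (adjusted p up to 0.422 and 0.0305), with limma voom (0.0343 and 0.0434) and with all stages pooled (0.028 and 0.0433). *Nkd1* also lost its call with DESeq2's size factors (0.0106), and *Birc5* with all stages pooled (0.0426). *Cdh5* was at least 1433-fold lower, *Dkk2* at least 275-fold and *Reck*, which presents WNT7 proteins to frizzled, at least 107-fold.

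Against CD44Neg at E11, 0 genes of the list were called higher and 17 lower in CD44High (median -0.81, or -0.87 with bounds, beside 0.04 over all genes, of which 10.8% were called). *Cdh5* was at least 484-fold lower, *Reck* at least 53.8-fold and *Dkk2* at least 15.5-fold, and *Ccnd1* fell by 3.59 on the log2 scale. *Myc* had a log2 fold change of 0.66 that was not called. The call of *Dkk2* was lost without any 1 of 12 libraries (adjusted p up to 0.0313), with limma voom (0.111) and with all stages pooled (0.0397). Against CD44LoKitPos 6 genes were called lower and 0 higher (median -0.49, or -0.39 with bounds, beside -0.02 over all genes, of which 3.01% were called), among them *Cdh5* (at least 229-fold), *Reck* (at least 20.4-fold) and *Lrp4* (at least 9.15-fold). No gene of the list was called between the stages of CD44Neg or in the interaction, where 0.0463% and 0.108% of all genes were called.

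The genes whose levels followed each member most closely over the 22 libraries are given as a description, by Pearson correlation of log2 CPM with a prior count of 2. The libraries fall into populations, so each value includes differences between populations. *Lef1* was followed by *Crmp1* (0.93), *Nes* (0.92) and *Cd81* (0.92), and *Ctnnb1* by *Rcn2* (0.95), *Mecom* (0.94) and *Rcn1* (0.94). *Fzd4* had the closest of all, *Adcy4* (0.98), *Plekhg1* (0.96) and *Robo4* (0.95), and *Fzd6* had *Tinagl1* (0.91), *Dll4* (0.90) and *Prnp* (0.89). *Tcf7* was followed by *Tshz3* (0.87), *Mtmr2* (0.83) and *Sall4* (0.83), *Tcf7l1* by *Selm* (0.93), *Rnf122* (0.92) and *Rbms2* (0.91), and *Tcf7l2* by *Rerg* (0.87), *Lifr* (0.86) and *Rapgef4* (0.85). Values were lower for *Lrp5*, with *Pelp1* (0.82), *Shc1* (0.80) and *D930048N14Rik* (0.80), for *Axin2*, with *Patl2* (0.81), *Ccdc121* (0.78) and *Tnfrsf19* (0.74), and for *Lrp6*, with *Cttnbp2* (0.78), *Atl1* (0.77) and *Zfp37* (0.76). Among the members themselves the highest values were between *Ctnnb1* and *Fzd6* (0.80), *Fzd4* and *Fzd6* (0.79) and *Tcf7l1* and *Fzd4* (0.79), and *Lef1* and *Ctnnb1* stood at 0.24.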

How the data were processed

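The authors amplified RNA of 25 sorted cells per library with SMART-Seq2 (14 PCR cycles, no molecular identifiers), prepared Nextera libraries and used EMBL Galaxy tools to clip adaptors (FASTX), map reads (RNA STAR) and obtain gene counts (htseq-count). The submitters' processing notes name mm10, FastQC and HTSeq, and versions, annotation and strand setting are not given in the sources used here. The deposited values are raw counts per gene symbol without normalization, and the authors pooled no replicates. Depth was 3912350 to 8657546 counts per library.

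Counts were analysed in R 4.3.3 with edgeR 4.0.16 (filterByExpr with a minimum count of 10 and a minimum total of 15, TMM, quasi-likelihood F test, prior count of 0.125 for fold changes, Benjamini-Hochberg adjustment over all genes of a fit, called at an adjusted p under 0.01). CD44LoKitNeg was compared with CD44Neg over 16 libraries by population. CD44High was compared with CD44LoKitPos in a fit of 4 populations over 22 libraries, and the other comparisons came from 1 fit of 9 population-by-stage groups over 22 libraries, with E10 weighted 2 to 1 over E9.5 where both enter. Standard errors were derived from the F statistic. Levels are CPM with TMM-scaled library sizes, and errors are standard deviations between libraries. Bounds for genes at 0 set 3 counts per library against the mean of the other group, and intervals of counts are exact Poisson intervals at 95%. Lengths, loci and overlaps were taken from GENCODE vM21, and sequences from RefSeq. Alternatives were DESeq2 1.42.0 (size factors and Wald test), limma voom (limma 3.58.1), no filter, at least 10 counts in every library, no *Rn45s*, stage as a covariate, other libraries in the fit and leaving out each library. The edgeR fits were tested, for part of the comparisons, on simulated counts with known changes planted in CD44LoKitNeg. The other steps were not tested in this way.

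The genes named are all members, the called genes of the WNT list by size of fold change (up to 10 in each direction in the first comparison and 3 in the others), *Myc* and *Ccnd1*, and the 3 genes most similar to each member. *Wnt11* is named besides, as the only ligand that passed the filter, and so are the marker genes at 0; both were chosen after their values were seen. The members, gene lists and marker lists were chosen with earlier results of these data known.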

Additional observations from a re-analysis of the deposited data

Results flagged for a closer look

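In populations of 4 to 10 libraries, and in stages of at least 4, the member levels were searched for single libraries standing apart by Dixon's criterion at 95%. Of 30 groups tested, 2 had such a library. The criterion flags about 1 in 20 groups of normally distributed values. That rate need not hold for levels near 0 or for populations that mix stages. *Axin2* was at 2.32 normalized CPM in CD44LoKitNeg replicate 14, the E9.5 library nearest to a CD44LoKitPos library, and at 0 to 0.135 in the other 5 CD44LoKitNeg libraries. *Fzd6* was at 46.3 normalized CPM in CD44Neg replicate 2 and at 0 to 21.6 in the other 9 CD44Neg libraries. The same CD44Neg library held the highest *Axin2* level of all 22, at 3.5. No member passed the test of a difference between stages in its population effect.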

How the results depend on the processing

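Over 99 fold changes and 2751 alternative values, 1 reversed its direction: *Tcf7l1* in CD44LoKitNeg against CD44Neg, from 0.33 to -0.0545 with stage as a covariate. Of 1424 alternative values for the members, 1322 kept their direction and their side of the threshold, 59 lost a call and 42 gained one; those are named beside the results. *Lef1* and *Ctnnb1* kept their calls in CD44LoKitNeg against CD44Neg under every alternative run, and so did the 6 members called in CD44High against CD44LoKitNeg. Counts of called genes over the whole table moved more. DESeq2's Wald test called 1746 genes in CD44LoKitNeg against CD44Neg (1121 in the comparison as reported), 990 at E11 (471), 980 at E9.5 and E10 (251), 970 in CD44LoKitPos against CD44LoKitNeg (375), 716 in CD44High against CD44LoKitPos (390), 192 between the stages of CD44Neg (6) and 100 in the interaction (14). With no filter, 771 genes were called at E11, 724 at E9.5 and E10, 729 in CD44LoKitPos against CD44LoKitNeg, 101 between stages and 110 in the interaction. With limma voom, the same 5 counts were 836, 779, 766, 86 and 9. When each library had to hold at least 10 counts, which tests fewer genes, they were 429 at E9.5 and E10, 1586 in CD44High against CD44LoKitNeg (2519), 735 against CD44Neg (1398), 116 against CD44LoKitPos, 24 between stages and 4 in the interaction. Pooling all stages gave 1097 in place of the E11 count, CD44Neg libraries alone gave 77 between stages, and leaving out CD44LoKitNeg replicate 14 and CD44LoKitPos replicate 19, an alternative chosen after seeing the data, gave 28 at E9.5 and E10. The cause of these shifts was not tested.

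Leaving out 1 library at a time gave 875 to 1222 calls in CD44LoKitNeg against CD44Neg, 195 to 493 at E11, 30 to 464 at E9.5 and E10, 120 to 502 in CD44LoKitPos against CD44LoKitNeg, 1869 to 2546 and 982 to 1411 in CD44High against CD44LoKitNeg and CD44Neg, 251 to 408 against CD44LoKitPos, 0 to 25 between stages and 1 to 26 in the interaction. Where this left a group with 1 or no library, the spread was taken from the other groups. No paired analysis was possible because no replicate number is shared between groups. *Axin2* was at or near the floor of 0.348 to 0.813 CPM in most libraries, which limits what its tests can show, and where a gene is near the floor in 1 group the size of its fold change is uncertain.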
